A study of Arabidopsis thaliana with 9 samples.

Results

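Glucosinolates are sulfur-rich defence compounds of Arabidopsis and its relatives, and 10 genes of their synthesis were followed in the cold. The set was fixed by name: the transcription factor genes MYB28 (AT5G61420), MYB29 (AT5G07690), MYB34 (AT5G60890), and MYB51 (AT1G18570), the aliphatic enzyme genes MAM1 (AT5G23010), CYP79F1 (AT1G16410), and CYP83A1 (AT4G13770), and the indole enzyme genes CYP79B2 (AT4G39950), CYP79B3 (AT2G22330), and CYP83B1 (AT4G31500). They are 10 of the 32310 loci that have a transcript in the files. The rule uses no measured value, but the set was chosen with earlier results of these data known. All 10 passed the filter on low counts. Steady-state RNA was measured in wild-type Col-0 seedlings kept at 22 °C (0 h), after 3 h at 4 °C, and after 12 h at 4 °C, with 3 libraries per group, each from a pool of seedlings grown on a separate plate of ½ MS medium in long days. The cold was given under weaker light than growth at 22 °C, and the 3 groups were harvested at different times of day, so temperature, light, and time of day cannot be told apart in any comparison with 22 °C. In the comparison of 12 h with 3 h, time in the cold and time of day cannot be told apart. Whole seedlings were used, so fewer cells of a type and less RNA per cell cannot be told apart either.

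A glucosinolate carries a sugar, a sulfate group, and a side chain that comes from an amino acid. Aliphatic glucosinolates are made from methionine, whose side chain is first lengthened and then passed through cytochrome P450 enzymes of the CYP79F and CYP83A type. Indole glucosinolates are made from tryptophan through CYP79B2, CYP79B3, and CYP83B1. MYB28 and MYB29 activate the aliphatic genes and MYB34 and MYB51 the indole genes, together with bHLH partners of the MYC family. When tissue is damaged, myrosinases cut the stored compounds into toxic products.

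The libraries hold 15910839 to 24291683 assigned reads, and the members take 0.129% to 0.138% of them at 22 °C, 0.111% to 0.118% at 3 h, and 0.0639% to 0.0669% at 12 h. A member had between 78 reads (MYB51 in a 12 h library) and 6308 reads (CYP83B1 in a 3 h library). Levels are given as normalized CPM, read counts relative to the TMM-scaled library total, when groups are compared, and as TPM, which takes transcript length into account, when genes are compared. Summed TPM is also given by group, and it carries no TMM factor. A gene was called when edgeR's quasi-likelihood F test gave an adjusted p under 0.05 and the fitted log2 change was 0.5 or more in either direction, the fold minimum. The 4 shoot markers (RBCS1A, CAB1, LHCB2.2, and CA1) had a summed level of 26102 to 33534 TPM in every library, and none was called in any comparison. Of all genes tested, 10.5% were called at 3 h, 33.1% at 12 h, and 25.8% between 12 h and 3 h. The summed level of 7 root markers was 88.3 to 107 TPM at 22 °C, 110 to 147 TPM at 3 h, and 106 to 133 TPM at 12 h. At 12 h 4 of the 7 (PIN2, PLT1, EXPA7, and WER) were higher than at 22 °C and 1 (SHR) was lower. Of all genes tested, 15.5% were higher and 17.7% lower. The part of the root markers in the results was not tested. The 5 seed storage markers summed to at most 1.19 TPM in any library.

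After 3 h at 4 °C, the members called lower were all of the aliphatic branch and the 1 called higher was of the indole branch. The branches were not tested against each other. The aliphatic genes MYB28, MYB29, CYP79F1, and CYP83A1 were lower than at 22 °C, the indole regulator gene MYB51 was higher, and MAM1, MYB34, CYP79B2, CYP79B3, and CYP83B1 were not called. Thus 4 of 10 members were lower and 1 was higher, where 3.47% and 7.05% of the 20460 genes tested were (10.5% in either direction). After 12 h, 9 of 10 members were lower than at 22 °C and none was higher, against 17.7% and 15.5% of all genes (33.1% in either direction), and MAM1 was the member not called. The median log2 fold change of the members was −0.15 at 3 h and −1.09 at 12 h, and that of all genes was −0.01 and −0.03. At 3 h the CPM ranges of 5 members lay below and that of 1 above those at 22 °C without overlap, patterns found in 16.7% and 17.2% of all genes (33.9% in either direction). At 12 h the ranges of 9 members lay below and none above, against 28.9% and 27.9% of all genes (56.8%). MYB34 and the 3 indole enzyme genes were not called at 3 h and lower at 12 h, a pattern of 14.5% of all genes. Both comparisons use the same 3 libraries at 22 °C.

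**Figure D1:**
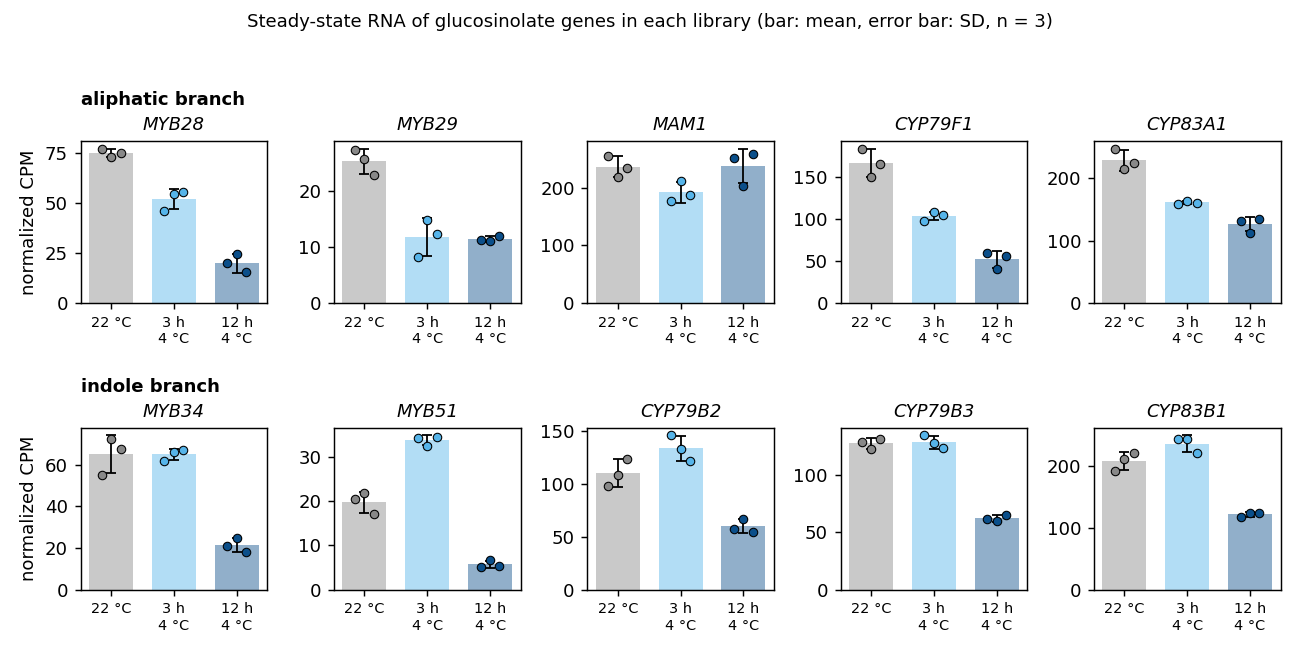
Normalized CPM (linear axes from 0) of the 10 members in each of the 9 libraries, with the aliphatic branch in the upper row and the indole branch in the lower row. Points are libraries, bars are means, and error bars are SD (n = 3). MYB51 reaches 33.6 CPM at 3 h and 5.75 CPM at 12 h, against 19.7 CPM at 22 °C, while MAM1 has 238 CPM at 12 h and 236 CPM at 22 °C.

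MYB28 is the main regulator of aliphatic glucosinolate synthesis, and its RNA fell at both times. It had 77.1, 72.9, and 75.0 CPM at 22 °C, 46.2, 54.3, and 55.3 CPM at 3 h, and 19.9, 24.7, and 15.3 CPM at 12 h. No library of one group reached the range of another, so the groups formed 3 separate steps. The log2 fold change was −0.53 (SE 0.12, edgeR adjusted p = 0.00458) at 3 h, −1.90 (SE 0.13, adjusted p = 4.2e-09) at 12 h, and −1.37 (SE 0.13, adjusted p = 3.3e-07) between 12 h and 3 h. The first value lay close to the fold minimum, and without the first library at 3 h it was −0.46 and not called.

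MYB29, which acts beside MYB28 on the same genes, had reached its 12 h level by 3 h. Its CPM was 27.3, 25.7, and 22.9 at 22 °C, 8.19, 14.9, and 12.4 at 3 h, and 11.2, 11.0, and 12.0 at 12 h. All cold libraries lay below all libraries at 22 °C, and the range at 12 h lay inside that at 3 h. The log2 fold change was −1.11 (SE 0.16, adjusted p = 0.000102) at 3 h and −1.16 (SE 0.16, adjusted p = 2.4e-05) at 12 h. Between 12 h and 3 h it was −0.04 with a 95% interval of −0.37 to 0.29, and the gene was not called. MYB28 and MYB29, like CYP79F1 and CYP83A1, are among the 581 genes (2.84% of those tested) that were lower at both times.

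MYB51, an indole regulator gene that responds to pathogens and wounding, changed in opposite directions. It had 20.4, 21.7, and 17.0 CPM at 22 °C, 34.1, 32.4, and 34.5 CPM at 3 h, and 5.17, 6.61, and 5.46 CPM at 12 h. Every 3 h library lay above and every 12 h library below all 3 libraries at 22 °C. The log2 fold change was 0.77 (SE 0.11, adjusted p = 8.3e-05) at 3 h and −1.78 (SE 0.13, adjusted p = 8.7e-09) at 12 h. Set against 3 h, the 12 h level was 5.85-fold lower (log2 −2.55, SE 0.12, adjusted p = 2.1e-10), and 0.352% of all genes had a lower log2 fold change in that comparison. Being higher at 3 h and lower at 12 h than at 22 °C was a pattern of 63 genes, 0.308% of those tested. The 12 h values rest on 78 to 112 reads per library.

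MYB34, the other indole regulator gene, first described for its control of tryptophan synthesis, was not called at 3 h and was lower at 12 h. It had 54.9, 72.4, and 67.5 CPM at 22 °C, 61.8, 65.8, and 67.1 CPM at 3 h, and 21.0, 25.0, and 18.3 CPM at 12 h. The 3 h values lay within the range at 22 °C, and the 12 h values lay below both. The log2 fold change was 0.00 at 3 h (SE 0.11, 95% interval −0.21 to 0.21) and −1.60 at 12 h (SE 0.12, adjusted p = 1.1e-08).

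MAM1 makes the methylthioalkylmalate synthase that starts each round of methionine chain elongation, and its mean TPM was the highest of the members in each group, although at 3 h it overlapped CYP83B1 over libraries. It had 255, 219, and 235 CPM at 22 °C, 177, 212, and 187 CPM at 3 h, and 251, 204, and 259 CPM at 12 h. The 3 h libraries lay below those at 22 °C, and the 12 h libraries overlapped both other groups. At 3 h the log2 fold change was −0.30 (SE 0.10), and the adjusted p of 0.0505 missed the threshold. At 12 h it was 0.01 with a 95% interval of −0.18 to 0.21, and between 12 h and 3 h it was 0.31 (SE 0.10, adjusted p = 0.0207), under the fold minimum.

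CYP79F1, which turns the elongated methionine derivatives into aldoximes, fell in 2 steps. Its CPM was 183, 150, and 165 at 22 °C, 97.9, 108, and 104 at 3 h, and 59.7, 40.9, and 55.5 at 12 h. The 3 groups did not overlap. CYP79F1 changed on the log2 scale by −0.68 (SE 0.11, adjusted p = 0.000403) at 3 h, −1.67 (SE 0.12, adjusted p = 7.5e-09) at 12 h, and −0.99 (SE 0.12, adjusted p = 4.9e-06) between 12 h and 3 h. CYP79F1 shares 4.66% of its 31-base words with its neighbour CYP79F2, so reads of that part could be split between the genes. No other member shared over 0.202% of its words with other loci.

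CYP83A1 acts on the aliphatic aldoximes made by CYP79F enzymes. It had 247, 215, and 224 CPM at 22 °C, 159, 164, and 161 CPM at 3 h, and 131, 113, and 134 CPM at 12 h. The groups did not overlap, and the decrease was smaller than that of CYP79F1, with a log2 fold change of −0.50 (SE 0.08, adjusted p = 0.000298) at 3 h and −0.86 (SE 0.08, adjusted p = 2.7e-07) at 12 h. The 3 h value sat at the fold minimum. The call was lost without the first library at 22 °C (−0.44) and without the first or the third library at 3 h. Between 12 h and 3 h the log2 fold change was −0.36 (SE 0.08, adjusted p = 0.00226), under the minimum.

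**Figure D2:**
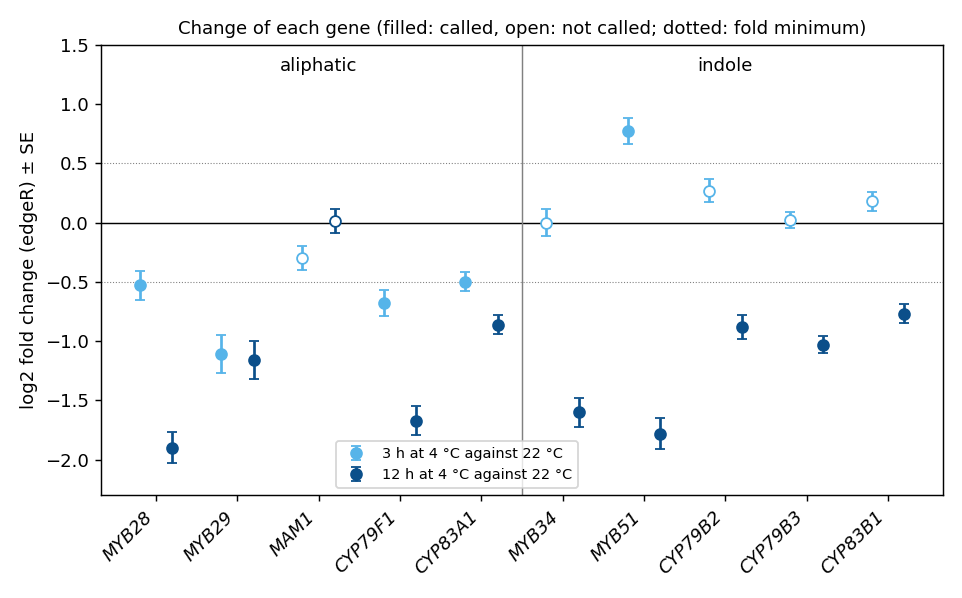
Log2 fold change from edgeR with its SE (error bars) for each member, at 3 h and at 12 h at 4 °C against 22 °C. Filled points were called, open points were not, and dotted lines mark the fold minimum of 0.5 in either direction. At 3 h the aliphatic genes lie between −1.11 and −0.30 and the indole genes between 0.00 and 0.77, and at 12 h MAM1 at 0.01 is the one gene near the zero line.

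CYP79B2 and CYP79B3 are a pair of tryptophan-using P450 enzymes with the same reaction, and neither was called at 3 h. CYP79B2 had 98.5, 109, and 124 CPM at 22 °C, 146, 133, and 122 CPM at 3 h, and 57.9, 67.3, and 55.0 CPM at 12 h. CYP79B3 had 128, 122, and 131 CPM at 22 °C, 134, 127, and 123 CPM at 3 h, and 61.4, 59.6, and 65.1 CPM at 12 h. In both genes the 3 h libraries overlapped those at 22 °C and every 12 h library lay below both groups. The log2 fold change of CYP79B2 was 0.27 (SE 0.10, adjusted p = 0.0743) at 3 h and −0.88 (SE 0.10, adjusted p = 2.6e-06) at 12 h. That of CYP79B3 was 0.02 (SE 0.07, 95% interval −0.12 to 0.15) at 3 h and −1.03 (SE 0.07, adjusted p = 7.0e-09) at 12 h. Between 12 h and 3 h, CYP79B2 fell by 1.15 (SE 0.10) and CYP79B3 by 1.05 (SE 0.07) on the log2 scale.

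The upstream sequences of this pair are shown because they share more than those of any other 2 members. The 250 bases before the annotated start of each gene were read from the RefSeq genome (TAIR10.1), and capitals mark exact runs of at least 12 bases held by both, on the gene's strand.
CYP79B2 (chr4:18524792-18525041, plus strand): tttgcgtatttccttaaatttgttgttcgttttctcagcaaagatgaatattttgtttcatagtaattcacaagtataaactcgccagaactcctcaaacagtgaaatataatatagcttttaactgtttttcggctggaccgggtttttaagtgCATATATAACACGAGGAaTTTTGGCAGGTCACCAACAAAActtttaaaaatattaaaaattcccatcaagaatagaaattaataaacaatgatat
CYP79B3 (chr2:9488163-9488412, plus strand): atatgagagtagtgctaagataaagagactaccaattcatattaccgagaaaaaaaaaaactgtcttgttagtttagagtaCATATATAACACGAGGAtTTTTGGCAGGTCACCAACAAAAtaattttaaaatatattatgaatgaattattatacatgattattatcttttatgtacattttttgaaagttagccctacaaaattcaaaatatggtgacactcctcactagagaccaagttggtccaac
The runs are 17 and 22 bases long and are separated by 1 base that differs. They lie 95 to 56 bases before the start of CYP79B2 and 169 to 130 bases before that of CYP79B3. The longer run, TTTTGGCAGGTCACCAACAAAA, was found in 2 of 27443 promoters of this length, which are these 2. Among the 45 pairs of members, the longest shared run was 22 bases for this pair and at most 13 bases for any other pair, with a median of 9 bases. The genes lie on different chromosomes.

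CYP83B1 takes the indole aldoxime towards glucosinolates and away from other indole products, such as auxin. It had 193, 212, and 222 CPM at 22 °C, 244, 245, and 221 CPM at 3 h, and 118, 124, and 125 CPM at 12 h. The 3 h range reached into that at 22 °C, and the 12 h libraries lay below both. The log2 fold change was 0.18 (SE 0.08, adjusted p = 0.131) at 3 h, −0.77 (SE 0.08, adjusted p = 4.9e-07) at 12 h, and −0.95 (SE 0.08, adjusted p = 6.9e-08) between 12 h and 3 h. In that last comparison 7 of 10 members were lower and none was higher, where 14.8% and 11% of all genes were (25.8% in either direction). The ranges of 8 members at 12 h lay below those at 3 h and none above, against 25.6% and 23.9% of all genes (49.5%). The 3 members not called were MYB29, MAM1, and CYP83A1, all of the aliphatic branch, and the ranges of MYB29 and MAM1 overlapped.

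Promoter letters that cold, clock, or stress factors are known to bind were each found in at most 1 of 10 members. The G-box CACGTG, also bound by MYC factors, was found in 1 of 10 members (6.49% of all 27443 promoters), the C-repeat core CCGAC, bound by CBF factors, in 1 of 10 (12%), the evening element core AATATCT in 1 of 10 (10%), and the W-box TTGACC in none (12.2%). Both strands were searched, and no match overlapped another. The 2 members below are shown because MYB29 alone held a C-repeat core, written in capitals as the opposite strand GTCGG 141 to 137 bases before the start, and CYP83A1 alone held a G-box, in capitals 43 to 38 bases before the start.
MYB29 (chr5:2446419-2446668, plus strand): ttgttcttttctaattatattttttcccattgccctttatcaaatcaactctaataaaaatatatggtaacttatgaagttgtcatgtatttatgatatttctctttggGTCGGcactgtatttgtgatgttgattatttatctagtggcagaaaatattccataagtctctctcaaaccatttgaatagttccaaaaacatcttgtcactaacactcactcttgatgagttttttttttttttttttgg
CYP83A1 (chr4:7992430-7992679, minus strand): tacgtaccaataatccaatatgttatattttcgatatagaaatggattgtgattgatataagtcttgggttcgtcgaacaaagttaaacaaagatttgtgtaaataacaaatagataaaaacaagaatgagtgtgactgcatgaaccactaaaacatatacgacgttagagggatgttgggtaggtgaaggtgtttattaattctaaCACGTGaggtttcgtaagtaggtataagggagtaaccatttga
CYP83B1 held the evening element core 126 to 120 bases before its start. A match describes letters in this window and does not show that a factor binds there.

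Levels of the members were compared within a library in TPM. At 22 °C the order ran from MAM1 (183 ± 14.7 TPM, SD, n = 3) over CYP83A1 (144 ± 10.3), CYP83B1 (128 ± 10.2), CYP79F1 (119 ± 11.3), CYP79B3 (82.0 ± 4.22), MYB28 (69.4 ± 2.16), MYB34 (61.3 ± 8.66), CYP79B2 (58.6 ± 7.61), and MYB29 (24.9 ± 1.59) to MYB51 (19.7 ± 2.32). The neighbours from CYP83A1 to CYP79F1 and from MYB28 to CYP79B2 overlapped between libraries, and the other neighbours did not. At 3 h CYP83B1 (143 ± 8.87 TPM) overlapped MAM1 (146 ± 10.3 TPM) at the top, and MYB51 (32.8 ± 1.59 TPM) lay above MYB29 (11.0 ± 2.94 TPM) without overlap. At 12 h MAM1 (161 ± 16.0 TPM) stood apart from CYP83A1 (68.1 ± 3.84 TPM), the next in order, and MYB51 (5.04 ± 0.862 TPM) was again the lowest.

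The balance between the branches was described by summed TPM, with no test, since the sums are made of the same members. The ratios are taken within a library, while the sums carry no TMM factor when set side by side over groups. The 3 aliphatic enzyme genes summed to 484, 411, and 444 TPM at 22 °C, 308, 332, and 314 TPM at 3 h, and 270, 233, and 278 TPM at 12 h. The 3 indole enzyme genes summed to 251, 264, and 292 TPM at 22 °C, 314, 291, and 273 TPM at 3 h, and 120, 134, and 127 TPM at 12 h. The aliphatic sum thus lay above the indole sum in each library except the first at 3 h. Their ratio was 1.93, 1.56, and 1.52 at 22 °C, 0.982, 1.14, and 1.15 at 3 h, and 2.24, 1.74, and 2.18 at 12 h, so the 3 h libraries had the lowest values. At 12 h MAM1 made up 161 of the 260 TPM of the aliphatic sum. For the enzymes of the same step, CYP79F1 over CYP79B3 averaged 1.45 at 22 °C, 0.905 at 3 h, and 0.904 at 12 h, and CYP83A1 over CYP83B1 averaged 1.13, 0.696, and 1.05, so at 12 h neither mean lay above that at 22 °C.

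The regulators followed the same order at 3 h. MYB28 and MYB29 over MYB34 and MYB51 gave a TPM ratio of 1.35, 1.04, and 1.14 at 22 °C, 0.555, 0.693, and 0.651 at 3 h, and 1.21, 1.14, and 1.12 at 12 h. The ratio was below 1 in every 3 h library and above 1 in every other library. The share held by MYB51 within the indole pair also differed, since MYB34 over MYB51 was 2.53 to 3.82 at 22 °C, 1.66 to 1.84 at 3 h, and 3.16 to 3.63 at 12 h. MYB28 over MYB29 was 2.66 to 3.04 at 22 °C, 3.44 to 5.32 at 3 h, and 1.23 to 2.11 at 12 h. All members together summed to 890 ± 29.8 TPM at 22 °C, 758 ± 16.8 TPM at 3 h, and 435 ± 11.4 TPM at 12 h (SD, n = 3). TPM carries no TMM factor, so the fall in these sums is not that in normalized CPM. MAM1, for example, had a mean of 183 TPM at 22 °C and 161 TPM at 12 h, but 236 and 238 CPM.

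**Figure D3:**
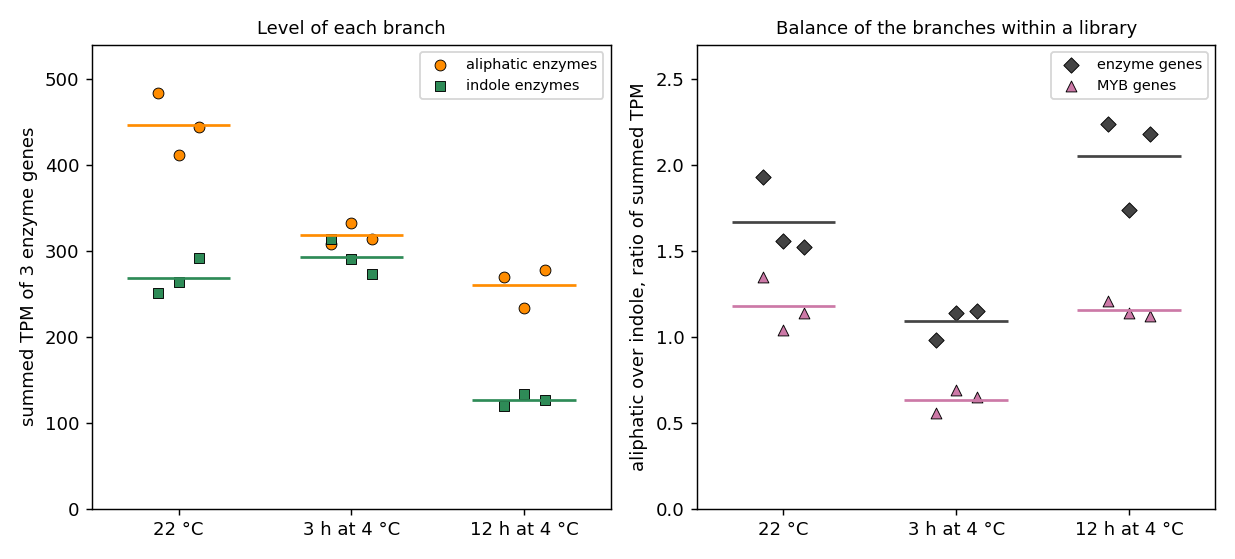
Left, summed TPM of the 3 aliphatic enzyme genes (circles) and the 3 indole enzyme genes (squares) in each library. Right, the aliphatic over the indole sum within a library, for the enzyme genes (diamonds) and the MYB genes (triangles). Lines are means of 3 libraries, and both axes start at 0. TPM carries no TMM factor, so differences between groups on the left are not those in normalized CPM. The ratio averages 1.67 at 22 °C, 1.09 at 3 h, and 2.06 at 12 h for the enzymes and 1.17, 0.633, and 1.16 for the MYB genes.

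Some members have several annotated transcripts, and 4 of them (MYB28, MAM1, CYP79F1, and CYP79B3) could be tested for a change in transcript usage. None was called, where 0.727% of 6739 loci were at 3 h, 2.46% at 12 h, and 1.01% between 12 h and 3 h. MAM1 came closest. Its first transcript, AT5G23010.1, held 83.5%, 83.6%, and 88.2% of the gene's TPM at 22 °C, 93.5%, 91.2%, and 86.7% at 3 h, and 96.3%, 96.3%, and 94.0% at 12 h. The third transcript, AT5G23010.3, held 14.0%, 11.6%, and 8.97% at 22 °C and 3.33%, 3.67%, and 5.54% at 12 h. The shares at 12 h did not overlap those at 22 °C, the shift was 10.5 percentage points, and the adjusted p of edgeR's usage test was 0.084. MYB28 was read mainly from AT5G61420.2, with a mean share of 91.3% at 22 °C, 89.2% at 3 h, and 93.7% at 12 h.

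The other genes of the pathway were taken from 7 lists with 58 loci, of which 55 were tested. Set against 22 °C, the test called 9 higher and 9 lower after 3 h and 9 higher and 23 lower after 12 h, and it called 6 higher and 22 lower between 12 h and 3 h. Over the whole table the share called higher was 7.05% at 3 h, 15.5% at 12 h, and 11% between 12 h and 3 h, and the share called lower was 3.47%, 17.7%, and 14.8%, so the 9 of 55 higher at 12 h lie near the background. The median log2 fold change of the 55 was −0.13 at 3 h and −0.20 at 12 h, and that of all genes was −0.01 and −0.03. AOP2, AOP3, and CYP71A13 gave no test, and AOP3 had no read in any library.

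Among 7 other regulators, MYC2 was higher at 3 h (log2 0.66, SE 0.08) and 4 were lower at 12 h, where 7.05% of all genes were higher at 3 h and 17.7% lower at 12 h. MYC2, MYC3, and MYC4 make the bHLH partners of the MYB proteins, and at 12 h their log2 fold changes were −0.69 (SE 0.09), −0.72 (SE 0.09), and −1.89 (SE 0.14). MYC2 had 62.0, 62.9, and 67.7 CPM at 22 °C, 113, 97.3, and 94.7 CPM at 3 h, and 42.9, 39.5, and 37.0 CPM at 12 h, so that, like MYB51, it lay above the 22 °C range at 3 h and below it at 12 h. Of the 31-base words of MYC2, 98.5% are also in the locus AT1G32630 on one strand or the other, which makes its value uncertain. MYB76, the third aliphatic MYB gene, fell at 12 h (−1.41, SE 0.38) from a level of 2.01 CPM at 22 °C.

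Of the 8 chain elongation genes, which act beside MAM1, 1 was called lower at 3 h (3.47% of all genes). The log2 fold changes of all 8 were between −0.54 and −0.22, and their CPM ranges lay below those at 22 °C without overlap (16.7% of all genes). With no fold minimum 6 were lower, against 6.52% of all genes. At 12 h 3 were called lower (17.7% of all genes) and none higher. They were IPMI1, a subunit of the isopropylmalate isomerase (−1.29, SE 0.11), BAT5, a plastid transporter (−0.66, SE 0.11), and IMD1, a dehydrogenase (−0.64, SE 0.09), which shares 15.1% of its words with IMD3. MAM3, the neighbour and paralog of MAM1, was called at neither time (−0.24, SE 0.11, at 3 h, −0.16, SE 0.11, at 12 h). BCAT4, which starts chain elongation and shares 19.5% of its words with IKU2, was not called either (−0.40, SE 0.11, at 3 h, −0.20, SE 0.11, at 12 h).

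The 12 further genes of core synthesis moved one way where they were called, with 5 lower at 3 h (3.47% of all genes), 9 lower at 12 h (17.7% of all genes), and none higher (7.05% and 15.5%). SOT17, a sulfotransferase gene of the last step of the aliphatic core, had 8.78, 9.21, and 9.45 CPM at 12 h, against 42.8, 40.2, and 42.4 CPM at 22 °C (log2 −2.19, SE 0.10). UGT74B1, a glucosyltransferase gene, had −0.51 (SE 0.08) at 3 h, then −1.75 (SE 0.09) at 12 h, and SOT18 had −0.62 (SE 0.09) and −1.33 (SE 0.09). AT2G31790, which has no symbol in the reference, had −0.53 (SE 0.09) and −1.66 (SE 0.09) and shares 15.2% of its words with other loci. SOT16, the sulfotransferase gene of the indole branch, was not called at 3 h (0.12, SE 0.08) and was lower at 12 h (−0.76, SE 0.09). GSTF11 fell as well (−1.28, SE 0.17, at 3 h), but 93.7% of its words are shared with NAC045, which makes the value uncertain. The glutathione transferase genes GSTF9, GSTF10, and GSTU20 were the 3 not called at 12 h, with 0.42 (SE 0.07), 0.49 (SE 0.07), and −0.03 (SE 0.10). GSTF9 and GSTF10 went the other way but stayed under the fold minimum (edgeR adjusted p = 0.000113 and 1.5e-05). Their CPM at 12 h lay above that at 22 °C without overlap (27.9% of all genes).

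Side chain genes went both ways. FMO GS-OX1, FMO GS-OX2, and FMO GS-OX3, which make S-oxygenases of aliphatic glucosinolates, were lower at 12 h, with log2 fold changes of −1.34 (SE 0.14), −1.21 (SE 0.14), and −1.70 (SE 0.09). At 3 h FMO GS-OX1 (−0.68, SE 0.13) and FMO GS-OX3 (−0.87, SE 0.08) were already lower. FMO GS-OX4 of the same family was higher. It had 95.5, 168, and 142 CPM at 22 °C, 296, 214, and 229 CPM at 3 h, and 1606, 1715, and 1710 CPM at 12 h, without overlap of the groups, a change of 12.4-fold at 12 h (log2 3.63, SE 0.17). AT2G25450, another locus of the list with no symbol in the reference, was higher at both times (0.70, SE 0.07, and 0.95, SE 0.07). FMO GS-OX1 to FMO GS-OX4 share at most 3.18% of their words with other loci. FMO GS-OX5, which shares 24.7%, was called at neither time (−0.04, SE 0.09, and −0.26, SE 0.10).

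Of 7 genes that modify the indole ring, 4 were higher at 3 h (7.05% of all genes) and 4 at 12 h (15.5% of all genes), none was lower, and 3 were not called at each time. CYP81F2, CYP81F3, and IGMT2 were higher at both times. CYP81F2, whose product hydroxylates the indole ring and takes part in the response to pathogens, had 3.87, 2.79, and 3.74 CPM at 22 °C, 10.8, 19.5, and 17.7 CPM at 3 h, and 12.8, 13.1, and 10.9 CPM at 12 h. Its log2 fold change was 2.2 (SE 0.21) at 3 h and 1.83 (SE 0.21) at 12 h. CYP81F3 had 1.21 (SE 0.14) and 1.88 (SE 0.14). The methyltransferase gene IGMT5 had 1.21 (SE 0.11) at 12 h, and IGMT1 was higher at 3 h (0.68, SE 0.11) and not called at 12 h (−0.10, SE 0.11). IGMT1 shares 23.8% of its words with other loci, mainly IGMT4, and IGMT2 shares 49.3%, mainly with IGMT3, so reads could be split between these genes. CYP81F4, with a mean of 517 CPM at 22 °C, 623 CPM at 3 h, and 498 CPM at 12 h, was called at neither time (0.27, SE 0.13, and −0.05, SE 0.13), and 86.3% of its words are also in AT4G37409. At 12 h, then, the indole modification genes that were called were higher while CYP79B2, CYP79B3, CYP83B1, MYB34, and MYB51 were lower.

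**Figure D4:**
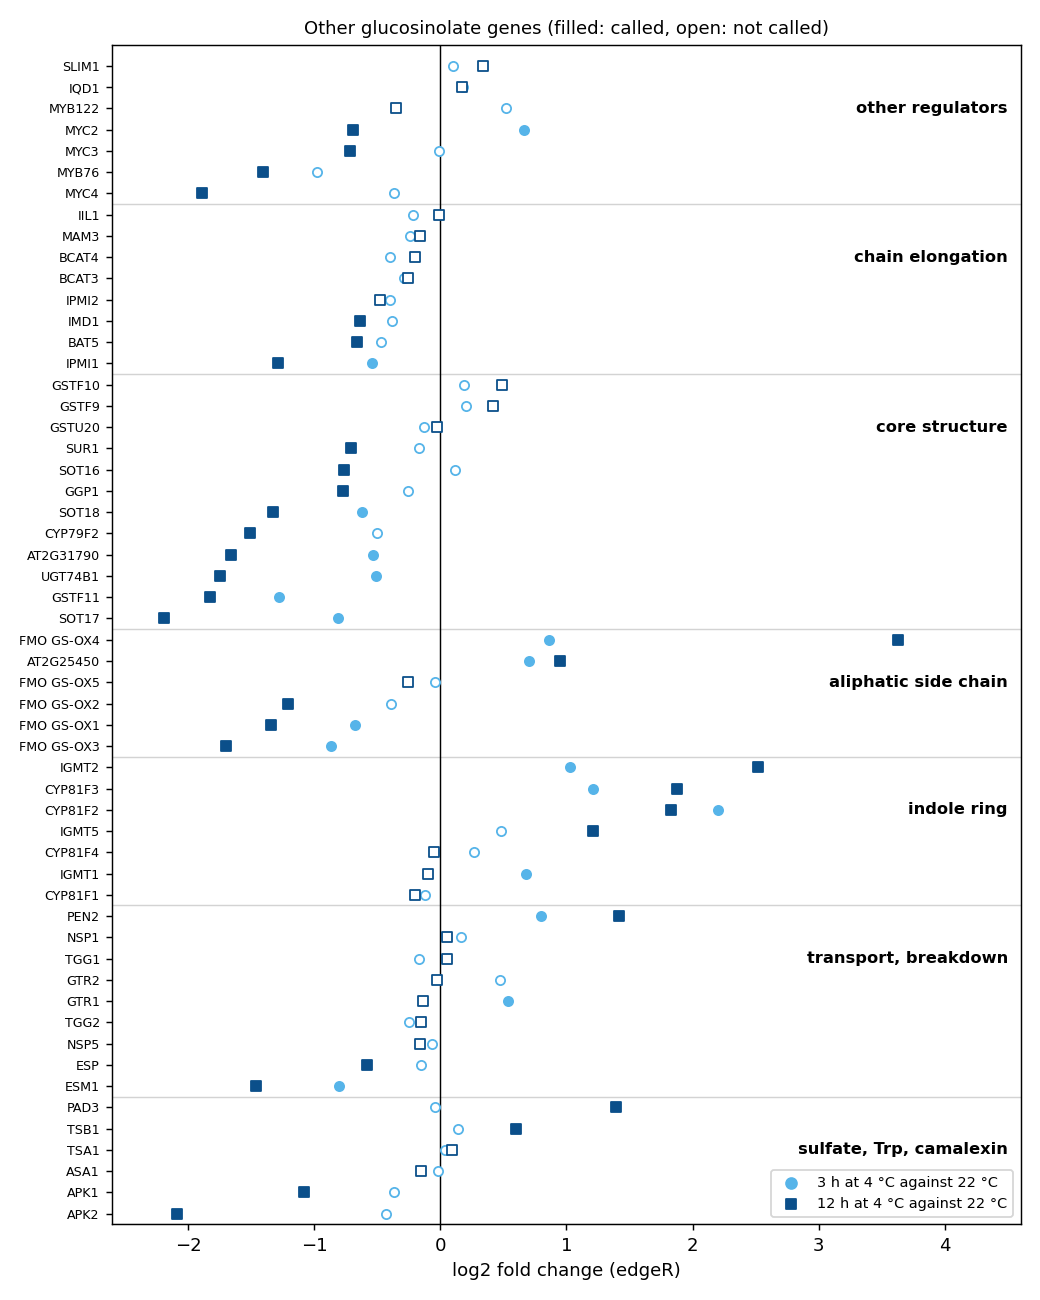
Log2 fold change from edgeR of the 55 tested pathway genes outside the 10 members, by list, at 3 h (circles) and 12 h (squares) at 4 °C against 22 °C. Filled symbols were called and open symbols were not. At 12 h the called core genes lie between −2.19 and −0.71, while the called indole ring genes lie between 1.21 and 2.52.

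Of 9 genes for transport and breakdown, 2 were higher and 1 was lower at 3 h (7.05% and 3.47% of all genes). At 12 h 1 was higher and 2 were lower, near the background (15.5% and 17.7% of all genes), and 6 were not called. PEN2, an atypical myrosinase that acts on indole glucosinolates, was higher at both times, with 323, 282, and 342 CPM at 12 h, against 119, 115, and 120 CPM at 22 °C (log2 1.42, SE 0.09). ESM1, which favours isothiocyanates over nitriles as breakdown products, was lower at both times (−0.80, SE 0.11, and −1.46, SE 0.11). The classical myrosinase genes TGG1 and TGG2 were not called (0.05, SE 0.10, and −0.15, SE 0.12, at 12 h). FAMA, a regulator needed for the myrosin cells that hold these enzymes, was not called either. It had 11.8, 10.6, and 12.9 CPM at 22 °C, 9.46, 10.4, and 9.13 CPM at 3 h, and 12.0, 8.56, and 9.03 CPM at 12 h. The transporter gene GTR1 was higher at 3 h (0.54, SE 0.10) and not called at 12 h (−0.14, SE 0.10), and 14.5% of its words are in other loci. GTR2 had 0.47 (SE 0.09, edgeR adjusted p = 0.00203) at 3 h, under the fold minimum, and −0.03 (SE 0.09) at 12 h. Both transporter genes were lower at 12 h than at 3 h (GTR1 −0.67, SE 0.10, and GTR2 −0.50, SE 0.09). ESP, which favours nitriles as breakdown products, was lower at 12 h than at 22 °C (−0.58, SE 0.16).

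Genes for the supply of sulfate and tryptophan and for camalexin were called in both directions at 12 h. Of the 6 genes tested in the list, 2 were higher and 2 lower at 12 h (15.5% and 17.7% of all genes). At 3 h none was called (10.5% of all genes in either direction). APK1 and APK2, which make adenylylsulfate kinases for the sulfate donor of the sulfotransferases, were lower at 12 h. Their 3 h changes of −0.37 (SE 0.07) and −0.43 (SE 0.07) were under the fold minimum (edgeR adjusted p = 0.00154 and 0.000433). APK2 had 29.6, 32.8, and 32.5 CPM at 12 h, against 132, 136, and 137 CPM at 22 °C (log2 −2.09, SE 0.08), and APK1 had −1.08 (SE 0.07). APK2 lies 3436 bases from CYP79B2. The tryptophan synthesis genes ASA1 and TSA1 were not called at 12 h (−0.15, SE 0.09, and 0.09, SE 0.08), and TSB1 was higher (0.60, SE 0.08). PAD3, which acts in the synthesis of camalexin, another product of the indole aldoxime, was higher at 12 h (1.39, SE 0.20), with 8.84 to 12.9 CPM, against 3.35 to 4.89 CPM at 22 °C.

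For each MYB gene, the 3 genes outside the lists whose log2 CPM followed it most closely over the 9 libraries were named, as a description. The 9 libraries are 3 groups, so the likeness mainly reflects 3 group means. They were AT1G27520, AT1G80870, and AT3G61420 for MYB28 (Pearson r of 0.9939 to 0.9964), SS3, AT3G25660, and FTSZ2-2 for MYB29 (0.9635 to 0.9678), AT5G14880, AT5G46450, and SAC51 for MYB34 (0.9914 to 0.9946), and AT5G01710, GATA1, and AT5G54145 for MYB51 (0.988 to 0.9901). Their changes were mostly smaller than those of the MYB genes. AT5G54145, for example, had a log2 fold change of 0.52 at 3 h and −1.40 at 12 h, and SS3, a starch synthase gene, had −0.35 and −0.43.

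In the genome (TAIR10.1), members lie on chromosomes 1, 2, 4, and 5, and no member overlaps another annotated gene. MYB28 (chr5:24689069-24691187, minus strand), MYB29 (chr5:2446669-2448584, plus strand), MYB34 (chr5:24494291-24496371, plus strand), and MAM1 (chr5:7703041-7706973, plus strand) share chromosome 5. MYB29 lies 1442 bases from MYB76 and MAM1 lies 11144 bases from MAM3. MYB51 (chr1:6389399-6391386) and CYP79F1 (chr1:5608682-5612064) are on the plus strand of chromosome 1, and CYP79F1 lies 1183 bases from CYP79F2. CYP79F1 had a log2 fold change of −1.67 (SE 0.12) at 12 h and CYP79F2 of −1.51 (SE 0.12), and some of their reads may be shared. CYP83A1 (chr4:7990429-7992429, minus strand), CYP83B1 (chr4:15273410-15275404, minus strand), CYP79B2 (chr4:18525042-18527602, plus strand), and CYP79B3 (chr2:9488413-9491404, plus strand) each hold 2 or 3 exons.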

How the data were processed

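RNA-seq of 9 strand-specific libraries was analysed. Per the labels and methods, the authors removed rRNA reads with SortMeRNA and adapters with Trimmomatic, checked reads with FastQC, assigned them to ARAPORT11 transcripts with Salmon, and tested genes with DESeq2. Salmon's options are not given in the sources used here. The deposited estimated counts are Salmon's expected reads per transcript, not whole for 30.0% to 40.5% of transcripts. The TPM values were made by Salmon from these counts and effective lengths, per the file headers.

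Estimated counts were summed over the 53467 transcripts of 32310 loci and rounded. Genes passing filterByExpr (20460) received TMM factors (0.889 to 0.946 at 12 h, 1.01 to 1.07 otherwise) and were tested with edgeR 4.0.16 (quasi-likelihood F test, 1 model over 9 libraries, no block, limma 3.58.1, R 4.3.3) with Benjamini-Hochberg adjustment. The SE was taken as the size of the log2 change divided by √F, and 95% intervals are 1.96 SE to each side. Nothing but separate plates is known of the replicates. The p-values set a difference between groups against the spread between these libraries, which edgeR moderates over all genes. Transcript usage was tested with diffSpliceDGE (Simes p per locus, adjusted p under 0.05, a shift of at least 10 percentage points). Tables and figures were made with Python 3.11.15, pandas 2.3.3, and matplotlib 3.10.9. Of the transcripts, 53045 matched RefSeq TAIR10.1 by ID, all of equal length. Reads from an overlapping gene on the other strand could be counted for a gene if Salmon ignored strand.

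The members and lists were chosen with earlier results of these data known. Named were all members, the 4 called genes of each list with the smallest p per contrast, any gene of a list when a count was 5 or fewer, and the 3 genes most like each MYB gene. Other pathway genes named with a value (MAM3, BCAT4, CYP79F2, GSTF9, GSTF10, GSTU20, TGG1, TGG2, ASA1, TSA1, CYP81F4, FMO GS-OX5) were named after their values were seen. Alternatives were DESeq2 1.42.0, its size factors, a looser and a stricter filter (1 count in all, 10 counts in every library), upper quartile factors, TPM-scaled counts, the 2 groups alone, other thresholds, a replicate block, and each library left out.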

Additional observations from a re-analysis of the deposited data

How the results depend on the processing

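No called member changed direction under any alternative, and 9 members were called at 12 h with each library left out. The members called at 3 h numbered 5 in the main analysis, 3 to 5 with 1 library left out (3 without the first library at 3 h), and 1 with a fold minimum of 1 on the log2 scale. At that minimum CYP83A1 (−0.86), CYP79B2 (−0.88), and CYP83B1 (−0.77) were no longer called at 12 h. CYP79F1 (−0.99) and CYP83B1 (−0.95) were no longer called between 12 h and 3 h. Raising the minimum to 1 left 965 genes at 3 h, 3492 at 12 h, and 2348 between 12 h and 3 h, with 4 pathway genes at 3 h and 10 between 12 h and 3 h. With no fold minimum, 3429 genes were called at 3 h, 8121 between 12 h and 3 h, and 29 pathway genes at 3 h. CYP83A1 at 3 h was not called with TPM-scaled counts (−0.48), and its call at the fold minimum was also lost in the 2 groups alone. Upper quartile factors moved the median of all genes to −0.159 at 12 h, so small changes depend on the scaling. Members near zero (MYB34 and CYP79B3 at 3 h, MAM1 at 12 h, MYB29 between 12 h and 3 h) took either sign.

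Deviations from the group means had an r of −0.197 to 0.105 between libraries of the same replicate number. These values cannot settle whether a number marks a shared batch. With the replicate number as a block, 4 members were called at 3 h, 9 at 12 h, and 7 between 12 h and 3 h, and CYP83A1 at 3 h was the one member whose call was lost. The smallest counts limit MYB51, with 78 to 112 reads at 12 h.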
